A study of Mus musculus with 12 samples.

Results

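Ragulator and the Rag GTPases were followed across wild-type and LAMTOR2-deficient blood progenitors through the 9 genes that encode them, of 19937 genes measured. The subunits of Ragulator are encoded by Lamtor1 to Lamtor5, and the small GTPases by Rraga, Rragb, Rragc and Rragd. The members were the probe sets whose single gene symbol is one of these names, which gave 11 probe sets. Lamtor1 and Lamtor3 had several sets each. For these 2 genes the brighter set on average over all arrays stands for the gene, and the other set is given beside it.

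RNA came from LSK cells (Lin- Sca1+ c-Kit+, stem cells and multipotent progenitors) and from granulocyte and macrophage progenitors, called GMP and sorted as Lin- Sca1- c-Kit+ CD34+ FcγR+, of mouse bone marrow, hybridised to Affymetrix arrays. KO mice were C57BL/6J Mx-Cre Lamtor2f/f, and WT controls were C57BL/6J Mx-Cre Lamtor2 wt/wt. The strain entries of both read "Mx1-Cre wt/wt". Every mouse, controls included, received pIpC intraperitoneally, and its cells were sorted on day 14. There were 3 arrays in each of 4 groups, LSK WT, LSK KO, GMP WT and GMP KO, from 3 mice of each genotype. Which LSK and GMP arrays share a mouse is not stated. Mx-Cre is driven by an interferon-inducible promoter that acts in many tissues, so deletion was not limited to these progenitors.

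Ragulator sits on the lysosomal surface and anchors Rag heterodimers, each made of RagA or RagB with RagC or RagD. In cells with enough amino acids, active Rag dimers bring the kinase complex mTORC1 to the lysosome, where Rheb can switch it on. RagC and RagD also bind the transcription factors TFEB and TFE3, which drive lysosomal genes when mTORC1 does not hold them in the cytosol, and LAMTOR2 with LAMTOR3 forms a scaffold for MEK1 on late endosomes.

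All values below are RMA values, which are log2 intensities, and a difference is a log2 difference. A gene is called changed where its Benjamini-Hochberg adjusted p in limma was under 0.05. The value of one probe set is not set against that of another, since probes differ in brightness. In sorted bulk samples, a change in the mix of cells and a change in the RNA of each cell cannot be told apart. The median value of an array over genes lay between 6.30 and 6.44. One array, GMP KO replicate 1, stood apart with a mean correlation to its group of 0.979, against 0.985 to 0.996 for the others. The labelled populations were checked by their markers. The HSC and MPP list (6 of 8 measured) averaged 8.92 to 9.06 in WT LSK and 6.25 to 6.50 in WT GMP. The GMP list averaged 8.09 to 9.20 in WT LSK and 11.86 to 11.998 in WT GMP.

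Lamtor2, the deleted gene, encodes the roadblock-fold subunit that pairs with LAMTOR3. Its LSK arrays read 10.39, 10.48 and 10.31 in WT and 5.11, 5.40 and 5.77 in KO. Its GMP arrays read 10.80, 10.82 and 10.61 in WT and 5.53, 5.12 and 4.95 in KO. Every array labelled KO lay far below every array labelled WT. The difference was -4.97 in LSK (SE 0.17, 31.3-fold lower, adjusted p = 3.65e-09) and -5.54 in GMP (SE 0.17, 46.6-fold lower, adjusted p = 8.74e-10). In both cell types it had the smallest p of all genes. Where the probes lie relative to the deleted part was not analysed here, and how much of the KO signal is background is not known. An exact two-sided permutation test gave p = 0.1, the smallest that 3 arrays against 3 allow.

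Beside the deletion, the members that rose were RagC and RagD in both cell types and Lamtor1 in GMP. In LSK, 2 of 9 members were higher in KO and 1 was lower, against 2.49% and 1.96% of all genes, and 4.44% of genes passed in either direction. In GMP, 3 of 9 were higher and 1 was lower, against 5.78% and 10.3% of all genes, and 16.1% of genes passed in either direction. The lower member was Lamtor2 in each case. The median difference over the 9 members was 0.03 in LSK and 0.05 in GMP, and over all genes -0.01 and 0.01. KO and WT arrays did not overlap for 3 of 9 members in LSK and 5 of 9 in GMP, against 25.5% and 29.6% of all genes.

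**Figure D1:**
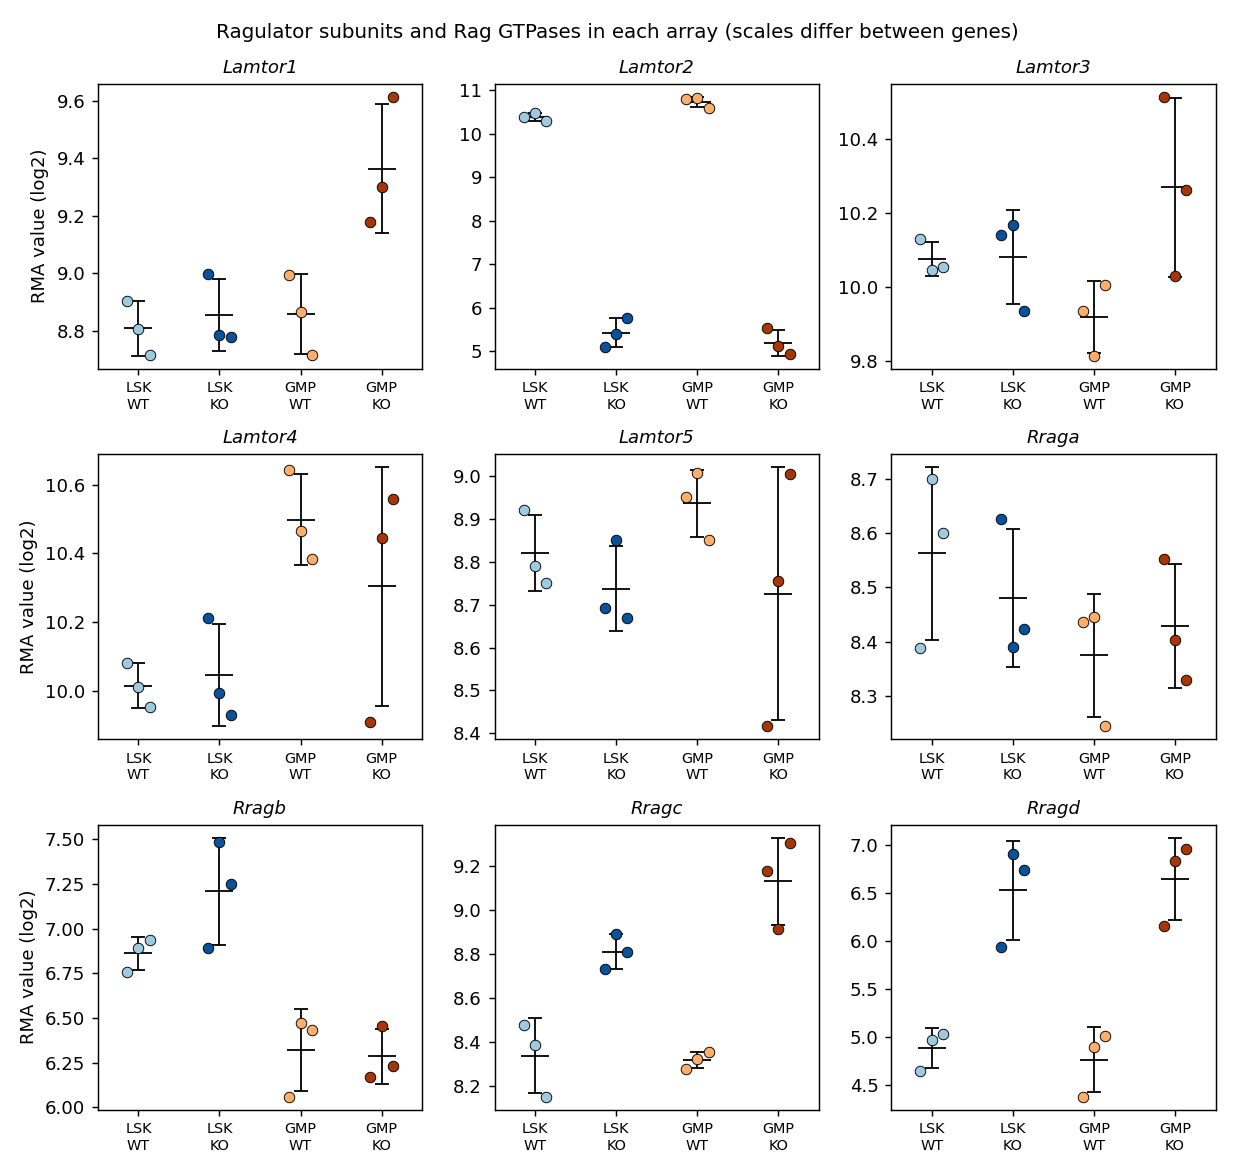
RMA value (log2, vertical axis, with a scale of its own in each panel) of the 9 genes in each of the 12 arrays, by group. Points are arrays, the long bar is the mean and the error bars are the SD of 3 arrays. For Rragd the 6 KO arrays lie between 5.94 and 6.95 and the 6 WT arrays between 4.37 and 5.03, whereas Lamtor4, Lamtor5 and Rraga overlap between KO and WT in both cell types.

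Rragd, which encodes RagD, had the largest increase among the members. In LSK the WT arrays read 4.64, 4.97 and 5.03, and the KO arrays 5.94, 6.90 and 6.73. In GMP the WT arrays read 4.37, 4.89 and 5.01, and the KO arrays 6.15, 6.83 and 6.95. WT and KO did not overlap in either cell type. RagD transcript rose by 1.64 in LSK (SE 0.26, 95% interval 1.09 to 2.205, 3.13-fold, adjusted p = 0.00258) and by 1.89 in GMP (SE 0.26, 95% interval 1.33 to 2.45, 3.70-fold, adjusted p = 3.34e-04). The WT values lay below the median gene of every array, and the files hold no detection calls, so a share of background in them was not measured. Signal from background would make these folds too small. Both calls were kept with any one array of the contrast left out, between 1.46 and 1.94 in LSK and between 1.70 and 2.13 in GMP.

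Rragc, which encodes RagC, the paralog of RagD, rose in the same arrays by less. In LSK the WT arrays read 8.48, 8.39 and 8.15, and the KO arrays 8.73, 8.89 and 8.81. In GMP the WT arrays read 8.28, 8.32 and 8.36, and the KO arrays 9.18, 8.92 and 9.30. All 6 KO arrays exceeded all 6 WT arrays. The increase was 0.47 in LSK (SE 0.12, 95% interval 0.22 to 0.72, 1.39-fold, adjusted p = 0.0338) and 0.81 in GMP (SE 0.12, 95% interval 0.56 to 1.06, 1.76-fold, adjusted p = 4.02e-04). The GMP call was kept with any array left out. The LSK call was kept only without LSK WT replicate 1, and ended without LSK WT replicate 2 (adjusted p = 0.0868) or 3 (0.138) and without LSK KO replicate 1 (0.0596), 2 (0.124) or 3 (0.103). It also ended when quantile normalization was repeated (0.0556).

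Rraga and Rragb, whose products are the other partner in each Rag dimer, did not pass in either cell type. RagA read 8.39, 8.70 and 8.60 in WT LSK against 8.63, 8.39 and 8.42 in KO LSK, and 8.44, 8.45 and 8.24 in WT GMP against 8.55, 8.40 and 8.33 in KO GMP. These ranges overlapped throughout, with differences of -0.08 (95% interval -0.32 to 0.16, adjusted p = 0.833) in LSK and 0.05 (95% interval -0.19 to 0.29, adjusted p = 0.817) in GMP. RagB read 6.76, 6.89 and 6.94 in WT LSK and 6.89, 7.49 and 7.25 in KO LSK. It read 6.06, 6.47 and 6.43 in WT GMP and 6.17, 6.46 and 6.23 in KO GMP. The lowest KO LSK array lay within the WT range, and the difference in LSK was 0.35 (95% interval 0.02 to 0.68, adjusted p = 0.277). In GMP it was -0.04 (95% interval -0.37 to 0.29, adjusted p = 0.914). Of the 4 Rag GTPases 2 rose in each cell type, against 2.49% of all genes in LSK and 5.78% in GMP. The median difference over the 4 was 0.41 in LSK and 0.43 in GMP, against -0.01 and 0.01 over all genes. In GMP that median falls between 0.05 for RagA and 0.81 for RagC, and is near the value of neither.

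The windows upstream of Rragc, Rragd, Lamtor1 and Rragb are shown because the first 3 of these genes rose in KO and Rragb had the largest difference between cell types among the members. Each runs from 250 bases before to 50 bases after the start that RefSeq's window table uses, 5′ to 3′ on the gene's strand, which is the plus strand for all 4. They are from RefSeq, build GRCm38.p6, at chr4:123917183-123917482 for Rragc, chr4:32982748-32983047 for Rragd, chr7:101905587-101905886 for Lamtor1 and chrX:153139708-153140007 for Rragb. For Rragb this start lies 2314 bases inside the gene's span, so its window is that of an internal start, whereas for the other windows it is the first base of the gene. Capitals mark CACGTG, the palindromic core of the E-box that MiT/TFE and MYC-family proteins can bind.
Rragc: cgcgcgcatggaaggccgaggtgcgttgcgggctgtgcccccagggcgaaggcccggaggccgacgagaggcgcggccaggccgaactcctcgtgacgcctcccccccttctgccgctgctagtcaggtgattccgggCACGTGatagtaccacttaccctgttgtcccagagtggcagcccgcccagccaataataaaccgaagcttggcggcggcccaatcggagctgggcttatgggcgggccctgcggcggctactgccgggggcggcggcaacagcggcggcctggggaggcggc
Rragd: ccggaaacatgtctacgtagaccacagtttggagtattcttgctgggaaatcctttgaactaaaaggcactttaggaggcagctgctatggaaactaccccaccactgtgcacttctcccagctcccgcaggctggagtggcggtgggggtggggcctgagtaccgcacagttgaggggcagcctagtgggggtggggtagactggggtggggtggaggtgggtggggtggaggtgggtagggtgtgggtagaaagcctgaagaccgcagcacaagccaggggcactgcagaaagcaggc
Lamtor1: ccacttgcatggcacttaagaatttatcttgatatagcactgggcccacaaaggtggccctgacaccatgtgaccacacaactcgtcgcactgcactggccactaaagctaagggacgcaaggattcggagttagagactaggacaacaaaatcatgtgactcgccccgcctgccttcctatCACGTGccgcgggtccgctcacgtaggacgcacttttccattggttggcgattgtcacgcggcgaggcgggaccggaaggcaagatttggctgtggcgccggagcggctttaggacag
Rragb: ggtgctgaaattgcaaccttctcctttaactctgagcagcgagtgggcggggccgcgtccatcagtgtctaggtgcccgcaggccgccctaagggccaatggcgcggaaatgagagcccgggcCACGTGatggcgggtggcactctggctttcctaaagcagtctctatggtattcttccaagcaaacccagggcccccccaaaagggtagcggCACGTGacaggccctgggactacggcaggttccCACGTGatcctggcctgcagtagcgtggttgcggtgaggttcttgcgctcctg
The table held windows for 8 of the 9 members, all but Lamtor3. CACGTG was found in 4 of these 8, namely Lamtor1, Lamtor4, Rragb and Rragc, and in 7.15% of all 32851 windows of this length. The motif lay 112 bases before the start of Rragc, 68 before that of Lamtor1, 120 and 104 before that of Lamtor4, and 127, 36 and 3 before the internal start of Rragb. The longer TCACGTG, whose other strand reads CACGTGA and which contains the first motif, was in the same 4 windows and in 3.77% of all windows. The window of Rragd, the member with the larger increase, held neither, nor did those of Lamtor2, Lamtor5 and Rraga. A match is only a description of these letters, and members with it both did (Rragc) and did not (Lamtor4) pass the test between KO and WT.

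Lamtor1 encodes the subunit that anchors Ragulator to the membrane through its lipid-modified end and wraps the others. In LSK the arrays read 8.90, 8.80 and 8.71 in WT and 8.998, 8.78 and 8.78 in KO. In GMP they read 8.99, 8.87 and 8.72 in WT and 9.18, 9.30 and 9.61 in KO. KO and WT overlapped in LSK and were separate in GMP. Lamtor1 rose by 0.51 in GMP (SE 0.12, 95% interval 0.24 to 0.77, 1.42-fold, adjusted p = 0.013), and in LSK the difference was 0.05 (95% interval -0.22 to 0.31, adjusted p = 0.93). The GMP call ended without GMP WT replicate 3 (0.43, adjusted p = 0.0609) and when only the 6 GMP arrays were fitted (adjusted p = 0.0617).

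A further Lamtor1 probe set gave a like picture. It read 8.76, 8.48 and 8.47 in WT LSK, 8.88, 8.94 and 8.61 in KO LSK, 8.70, 8.77 and 8.66 in WT GMP, and 9.61, 9.11 and 9.36 in KO GMP. With every probe set tested as its own feature, the difference in GMP was 0.65 (SE 0.13, adjusted p = 0.00582) and in LSK 0.24 (SE 0.13, adjusted p = 0.439). The annotated probe sets nearest in number to the set used belonged to genes of another chromosome than Lamtor1 in 20 of 20 cases, whereas those of the further set lay on the chromosome of Lamtor1 in 18 of 18. Probe positions were not analysed here, and signal from a near-identical copy cannot be told apart from that of the gene.

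Lamtor3, the partner of LAMTOR2 in the MEK1 scaffold, did not pass in either cell type. Its arrays read 10.13, 10.05 and 10.05 in WT LSK, 10.14, 10.17 and 9.93 in KO LSK, 9.93, 9.81 and 10.01 in WT GMP, and 10.51, 10.03 and 10.26 in KO GMP. The groups overlapped in LSK (0.00, 95% interval -0.25 to 0.26, adjusted p = 0.994), while in GMP all KO arrays lay above all WT arrays (0.35, 95% interval 0.09 to 0.61, adjusted p = 0.0643). Its further probe set read 9.46, 9.53 and 9.45 in WT GMP against 9.99, 9.78 and 9.76 in KO GMP, and passed when tested as its own feature (0.36, SE 0.09, adjusted p = 0.0213). The sets nearest in number to that further set lay on another chromosome in 19 of 19 cases, and those of the set used on the gene's own in 20 of 20. Of the alternatives, 5 moved the GMP value of Lamtor3 past the threshold, including the mean of both sets (adjusted p = 0.0275), as did leaving out GMP KO replicate 2 (0.47, adjusted p = 0.0144).

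**Figure D2:**
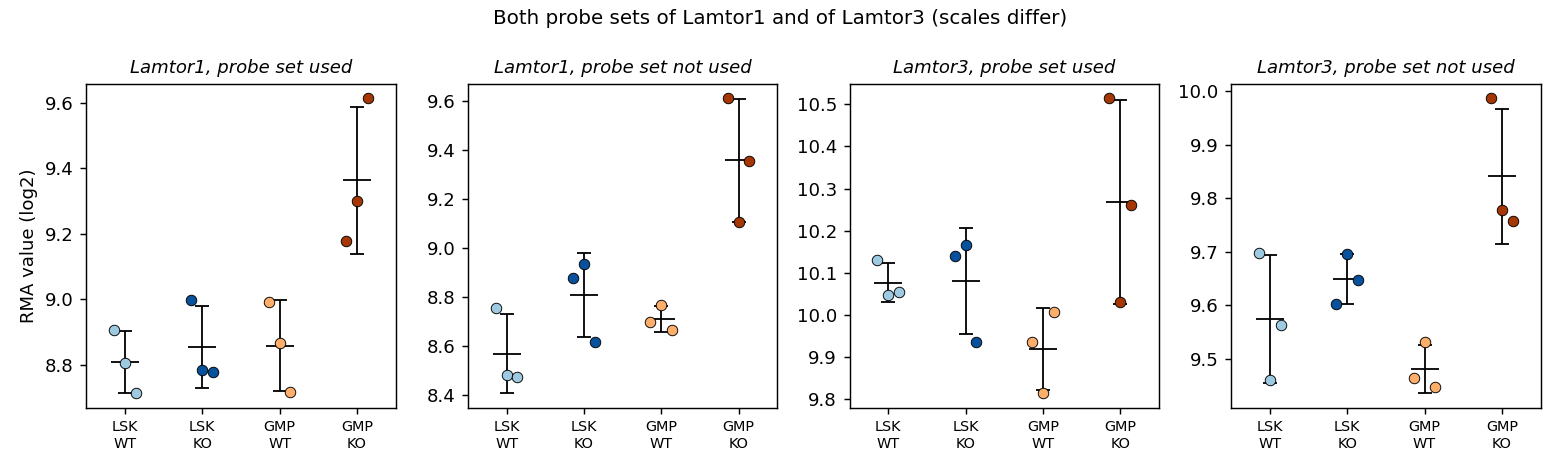
RMA value (log2, vertical axis, with a scale of its own in each panel) of both probe sets of Lamtor1 and of Lamtor3 in each of the 12 arrays, by group, with the mean and SD of 3 arrays. In all 4 panels the GMP KO points lie above the GMP WT points.

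Lamtor4 and Lamtor5, the other roadblock-fold pair, had no call between KO and WT. Lamtor4 read 10.08, 10.01 and 9.95 in WT LSK and 10.21, 9.99 and 9.93 in KO LSK, with a difference of 0.03 (95% interval -0.29 to 0.35, adjusted p = 0.965). In GMP it read 10.64, 10.46 and 10.38 in WT and 9.91, 10.44 and 10.56 in KO, with a difference of -0.19 (95% interval -0.52 to 0.13, adjusted p = 0.453). That negative value rested on GMP KO replicate 1, the array that stood apart, and was 0.0038 without it. Lamtor5 read 8.92, 8.79 and 8.75 in WT LSK against 8.69, 8.85 and 8.67 in KO LSK, and 8.95, 9.01 and 8.85 in WT GMP against 8.42, 8.76 and 9.01 in KO GMP. The groups overlapped, with differences of -0.08 (95% interval -0.36 to 0.20, adjusted p = 0.864) and -0.21 (95% interval -0.49 to 0.07, adjusted p = 0.325). The GMP value was -0.056 without GMP KO replicate 1 and -0.35 without GMP KO replicate 3.

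**Figure D3:**
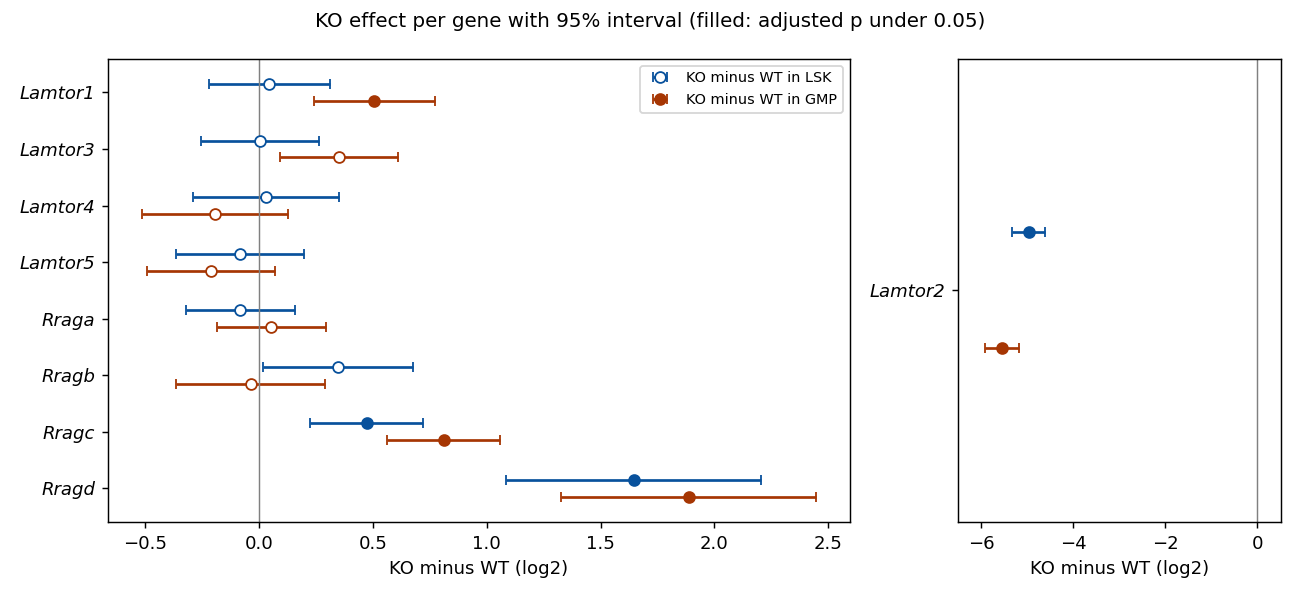
KO minus WT on the log2 scale (horizontal axis) for each gene in LSK (blue) and GMP (red), with the 95% interval of the limma fit, and Lamtor2 on an axis of its own. Filled points have an adjusted p under 0.05, which holds for Rragc, Rragd and Lamtor2 in both cell types and for Lamtor1 in GMP.

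Whether the KO effect differed between LSK and GMP was tested directly. None of the 9 members passed in limma (0 of 9, against 7.98% of all genes), and 2 of 9, Lamtor1 and Lamtor2, had an unadjusted p under 0.05. The effect in LSK minus that in GMP was -0.46 for Lamtor1 (95% interval -0.84 to -0.08, adjusted p = 0.135) and 0.58 for Lamtor2 (95% interval 0.07 to 1.09, adjusted p = 0.166). It was -0.34 for Rragc (95% interval -0.69 to 0.01, adjusted p = 0.241) and -0.24 for Rragd (95% interval -1.03 to 0.55, adjusted p = 0.766). The Lamtor1 difference passed when quantile normalization was repeated (-0.62, adjusted p = 0.04). LSK minus GMP of Lamtor2 was -0.35 in WT (adjusted p = 0.19) and 0.23 in KO (adjusted p = 0.356). How much of its KO readings is background was not tested. For Rragc and Rragd the interval of the difference spans 0.

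Between the cell types in WT mice, RagB was higher in LSK and Lamtor4 higher in GMP. These comparisons use the same WT arrays as the KO contrasts. WT LSK arrays of RagB lay between 6.76 and 6.94 and WT GMP arrays between 6.06 and 6.47, a difference of 0.54 (SE 0.15, 1.45-fold, adjusted p = 0.0225). Lamtor4 lay between 9.95 and 10.08 in WT LSK and between 10.38 and 10.64 in WT GMP, a difference of -0.48 (SE 0.15, 1.40-fold higher in GMP, adjusted p = 0.0357). These were 2 of 9 members, against 19.6% of all genes, and 4 of 9 did not overlap, against 40.6% of all genes. Lamtor2 and Lamtor3 were separate too, without a call (-0.35, adjusted p = 0.19, and 0.16, adjusted p = 0.445). Lamtor2 passed with array weights (-0.37, adjusted p = 0.0432) and with only the WT arrays fitted (adjusted p = 0.0178). The RagB call ended without LSK WT replicate 2 (adjusted p = 0.0727) or 3 (0.0787) and without GMP WT replicate 1 (0.114), and when quantile normalization was repeated (0.0797). The Lamtor4 call ended with each of the 6 WT arrays left out in turn (adjusted p from 0.0539 to 0.141) and when quantile normalization was repeated (0.124).

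In KO mice RagB was again higher in LSK, and Lamtor1 was higher in GMP. RagB lay between 6.89 and 7.49 in KO LSK and between 6.17 and 6.46 in KO GMP, a difference of 0.92 (SE 0.15, 1.90-fold, adjusted p = 0.00134) that kept its call with any array left out. Lamtor1 lay between 8.78 and 8.998 in KO LSK and between 9.18 and 9.61 in KO GMP, a difference of -0.51 (SE 0.12, 1.42-fold higher in GMP, adjusted p = 0.0134). That call ended without LSK KO replicate 3 (adjusted p = 0.0626) and when only the KO arrays were fitted (0.0718). Here 2 of 9 members passed, against 15.8% of all genes, and 3 of 9 did not overlap, against 31.5% of all genes. The third of these was Rragc, at 8.73 to 8.89 in KO LSK and 8.92 to 9.30 in KO GMP (-0.32, adjusted p = 0.0768).

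For Rragd, Rragc, Rragb and Lamtor1 the order of the 4 group means was as follows. RagD ran from GMP WT (4.76 ± 0.34, SD, n = 3) through LSK WT (4.88 ± 0.21) to LSK KO (6.52 ± 0.52) and GMP KO (6.64 ± 0.43), where the neighbours within a genotype differed by less than their spread. RagC ran from GMP WT (8.32 ± 0.04) through LSK WT (8.34 ± 0.17) and LSK KO (8.81 ± 0.08) to GMP KO (9.13 ± 0.20), with the WT pair within their spread. RagB ran from GMP KO (6.28 ± 0.15) and GMP WT (6.32 ± 0.23), which were within their spread, to LSK WT (6.86 ± 0.09) and LSK KO (7.21 ± 0.30). Lamtor1 had 3 groups between 8.81 and 8.86 and GMP KO above them at 9.36 ± 0.23.

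Macrophage markers moved with the genotype in the same arrays, and are given beside the increases of Rragc, Rragd and Lamtor1. The mean of the 10 macrophage genes, all measured, ranged over 5.65 to 5.92 in LSK WT and 6.39 to 7.29 in LSK KO. In GMP it ranged over 6.40 to 6.48 in WT and 7.94 to 8.39 in KO. Of the 10 genes, 3 were higher in KO LSK and 5 in KO GMP, with C1qb, C1qc and Cd68 in both, whereas Adgre1, Csf1r, Vcam1, Cd5l and Marco did not pass in either. Cd5l had group means between 3.496 and 3.75 and Marco between 5.50 and 5.84. The GMP and primary granule list averaged 9.45 to 10.31 in LSK KO, with 3 of 7 genes higher than in WT. In GMP it averaged 11.54 to 11.75 in KO, below 11.86 to 11.998 in WT. The HSC and MPP list averaged 8.54 to 8.88 in LSK KO, below 8.92 to 9.06 in LSK WT, where of its genes only Hlf passed (-0.55, adjusted p = 0.0293). In GMP that list averaged 6.42 to 6.79 in KO and 6.25 to 6.50 in WT. There only Flt3 passed, and it rose (1.26, adjusted p = 5.13e-05). The part of these genes in the results on Ragulator and the Rag GTPases was not tested.

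Proteins that act on the Rag GTPases were taken from a list of 24 regulators and amino acid sensors, of which 21 were measured. In LSK 3 rose and 4 fell (median -0.03), against 2.49% and 1.96% of all genes. In GMP 3 rose and 4 fell (median -0.13), against 5.78% and 10.3% of all genes. The folliculin complex, which acts as the GTPase-activating protein of RagC and RagD, held most of the increases. Fnip2, a folliculin partner, read 7.38 ± 0.03 in WT and 8.71 ± 0.34 in KO LSK, and 7.03 ± 0.13 in WT and 10.37 ± 0.15 in KO GMP (SD, n = 3). It rose by 1.33 in LSK (SE 0.15, adjusted p = 2.21e-04) and by 3.34 in GMP (SE 0.15, adjusted p = 2.57e-08). Fnip1, its paralog, rose by 0.84 in LSK (SE 0.10, adjusted p = 4.00e-04) and by 0.79 in GMP (SE 0.10, adjusted p = 1.89e-04). Flcn, folliculin itself, rose by 0.60 in GMP (SE 0.12, adjusted p = 0.00392), and its difference in LSK was 0.27 (SE 0.12, adjusted p = 0.282). These 5 calls were kept with any array of the contrast left out.

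The 4 regulators that fell in LSK were Castor2 and the 3 sestrins, and in GMP Sesn1, Sesn2, Lars and Sec13 fell. Castor2, of the arginine sensor family, fell by 0.99 in LSK (SE 0.12, adjusted p = 5.50e-04), and its difference in GMP was -0.34 (adjusted p = 0.0834). The sestrins, of which Sesn2 is a leucine sensor, had lower values in both cell types. Sesn1 fell by 0.66 in LSK (SE 0.12, adjusted p = 0.00777) and by 0.53 in GMP (SE 0.12, adjusted p = 0.00979). Sesn2 fell by 0.52 in LSK (adjusted p = 0.0403) and by 0.46 in GMP (adjusted p = 0.0306), and Sesn3 fell by 1.01 in LSK (adjusted p = 0.0334). Lars, the leucyl-tRNA synthetase, rose by 0.47 in LSK (adjusted p = 0.0222) and fell by 0.43 in GMP (adjusted p = 0.0138). Sec13, a GATOR2 subunit also found in vesicle coats and nuclear pores, fell by 0.43 in GMP (adjusted p = 0.0156).

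Several of these calls ended with a single array left out. In LSK this held for Sesn2 (adjusted p from 0.0856 to 0.136) and Sesn3 (from 0.0542 to 0.149) with each of the 6 arrays, and for Lars without LSK WT replicate 1 (0.0993) or 2 (0.0745) or LSK KO replicate 2 (0.0602) or 3 (0.0992). In GMP it held for Sesn2 with each array except GMP KO replicate 3 (from 0.05 to 0.0868), for Sesn1 (0.0537) and Lars (0.0738) without GMP WT replicate 2, and for Sec13 without GMP WT replicate 1 (0.0589). In GMP, repeated quantile normalization ended the calls of Lars (0.0588) and Sec13 (0.0785), and a fit of only the GMP arrays ended those of Sesn1 (0.0524), Sesn2 (0.125), Lars (0.0709) and Sec13 (0.0552). Array weights ended that of Sesn2 in GMP (0.0794), while repeated quantile normalization (0.108) and centring (0.0609) ended it in LSK. Without GMP KO replicate 1 the Sesn2 difference in GMP was -0.29, against -0.46 with it.

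**Figure D4:**
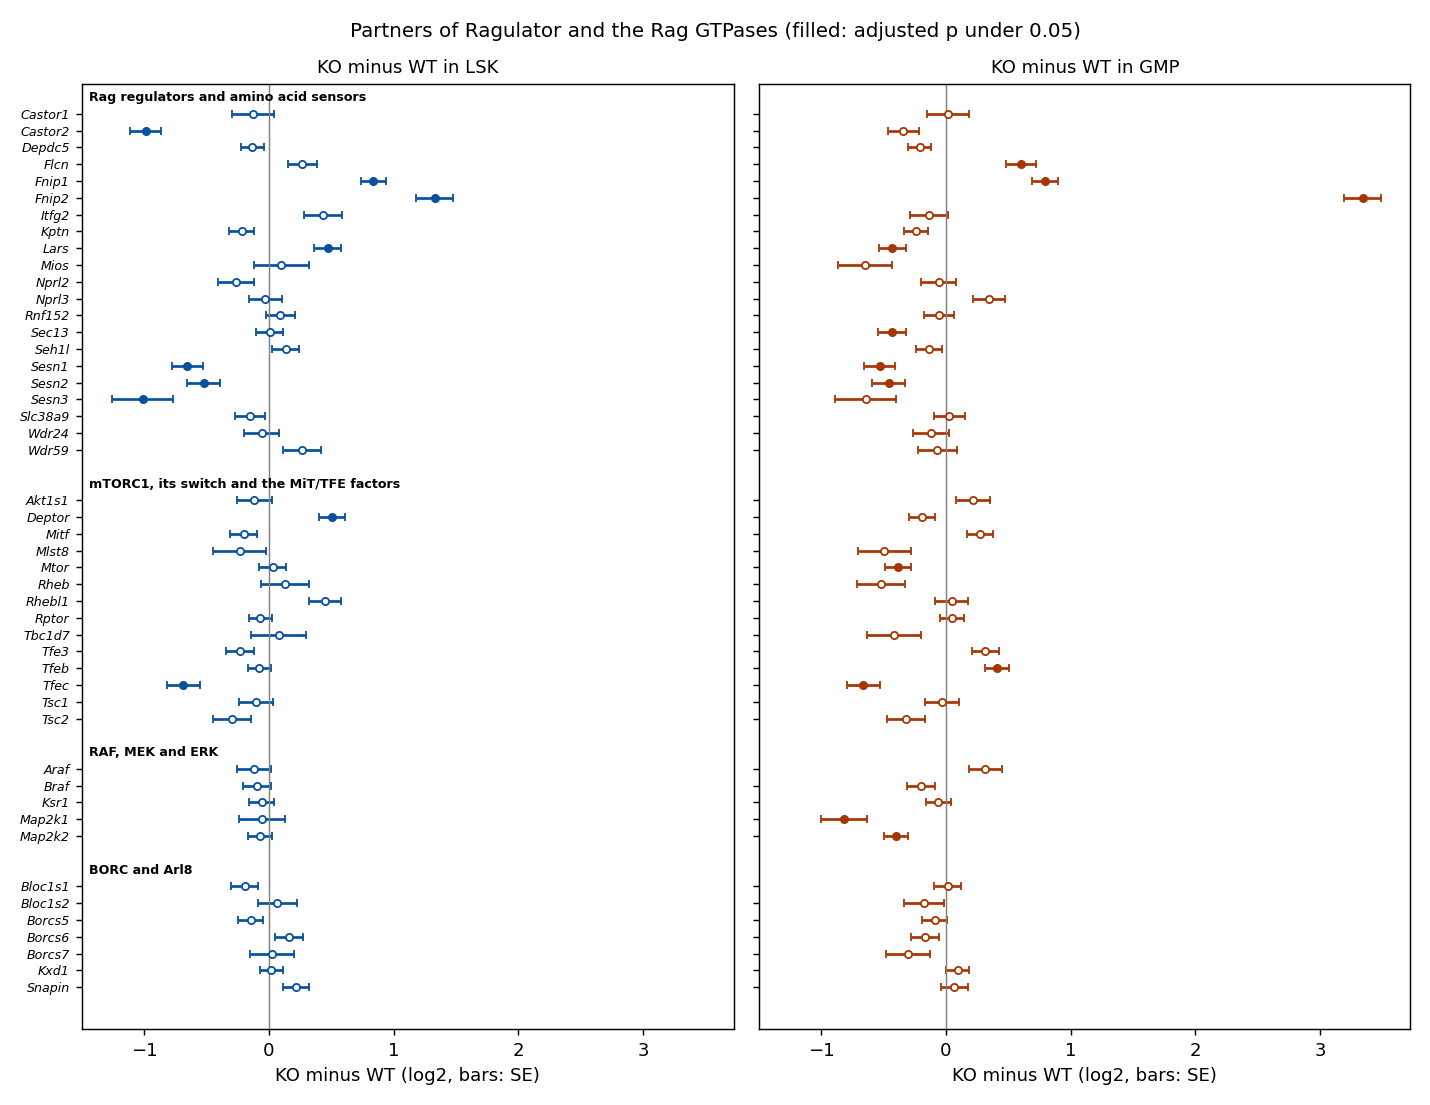
KO minus WT on the log2 scale (horizontal axis) with the SE of the limma fit, for the measured genes of 4 lists of partners, in LSK (left) and GMP (right). Filled points have an adjusted p under 0.05. Fnip2 lies farthest to the right in both panels, at 1.33 in LSK and 3.34 in GMP, and no gene of the BORC and Arl8 list has a filled point.

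Of 14 genes for mTORC1, its switch Rheb with the TSC complex, and the MiT/TFE factors, all measured, 1 rose and 1 fell in LSK (median -0.09), against 2.49% and 1.96% of all genes. In GMP 1 rose and 2 fell (median -0.11), against 5.78% and 10.3% of all genes. Tfec, an MiT/TFE family member, fell by 0.69 in LSK (SE 0.13, adjusted p = 0.00961) and by 0.66 in GMP (SE 0.13, adjusted p = 0.00438). Deptor, an mTOR inhibitor, rose by 0.51 in LSK (SE 0.11, adjusted p = 0.0146). Tfeb, the lysosomal gene regulator, rose by 0.41 in GMP (SE 0.09, adjusted p = 0.0093), and Mtor, the kinase, fell by 0.39 in GMP (SE 0.10, adjusted p = 0.0234). The Tfec call ended in LSK without LSK WT replicate 2 (adjusted p = 0.0518) and in GMP with repeated quantile normalization (0.0533), and the Deptor call without LSK WT replicate 1 (0.0572) or 2 (0.061) or LSK KO replicate 1 (0.0635). The Mtor call ended without GMP WT replicate 2 (0.097) or 3 (0.0656) or GMP KO replicate 1 (0.0622), and with only the GMP arrays fitted (0.101).

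Of 8 genes for RAF, MEK and ERK, the cascade of MEK1, for which LAMTOR2 and LAMTOR3 form a scaffold, 5 were measured. None passed in LSK in limma (0 of 5, against 4.44% of all genes), and none had an unadjusted p under 0.05 there (median -0.07). In GMP 2 fell (median -0.20), where 10.3% of all genes fell. Map2k1, which encodes MEK1, fell by 0.82 in GMP (SE 0.18, adjusted p = 0.00851), with 8.70 ± 0.12 in WT and 7.89 ± 0.46 in KO (SD, n = 3). Map2k2, which encodes MEK2, fell by 0.40 in GMP (SE 0.10, adjusted p = 0.0126), a call that ended without GMP WT replicate 2 (0.0503), with repeated quantile normalization (0.0606) and with only the GMP arrays fitted (0.0734). Of 10 genes of BORC, the lysosome-positioning complex that Ragulator binds, and its effector Arl8, 7 were measured. None of the 7 passed in limma in LSK or GMP, against 4.44% and 16.1% of all genes. None had an unadjusted p under 0.05 in either.

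The genes with the pattern most alike over the 12 arrays were found by the root mean square difference between log2 values, after each gene was centred on its mean. For Rragd they were Nek6 (0.25), Ctsl (0.28), St6gal1 (0.30), Snx24 (0.32) and P2rx4 (0.36), with a median over all genes of 0.96. Their KO minus WT differences lay between 1.25 and 1.55 in LSK and between 1.46 and 2.14 in GMP, beside 1.64 and 1.89 for Rragd. For Rragc they were Pde1b (0.11), Cd63 (0.14), Eno2 (0.14), Sqstm1 (0.14) and Tnni2 (0.14), with a median over all genes of 0.40. Their differences lay between 0.23 and 0.55 in LSK and between 0.70 and 1.03 in GMP. For Lamtor1 they were Cotl1 (0.11), Vps11 (0.11), Psmd8 (0.12), Il3ra (0.12) and Fbxl2 (0.12), with a median over all genes of 0.31. These genes were picked for their likeness over these arrays, so their differences are a description with no test.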

How the data were processed

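Total RNA of 12 sorted samples was amplified, labelled with biotin and hybridised to Affymetrix arrays, per the labels' protocols. The deposited values are log2 intensities made by the authors with RMA, per the submitters' processing notes. The log2 scale was read from the values. For RMA, the software, version and genome build were not given in the sources used here, and neither is a scan date or batch.

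Of 34760 probe sets, 21640 had a single gene symbol in the platform annotation, and 21553 of these were named through their gene identifier in RefSeq (GRCm38.p6). They gave 19937 genes. Of several sets for a gene, the one brightest on average was kept. The 4 groups were fitted together with limma 3.58.1 in R 4.3.3 (lmFit and eBayes, degrees of freedom 8 residual and 5.16 prior). Tests were two-sided, and p-values were adjusted by Benjamini-Hochberg over all genes. The code was tested on simulated data. No probe was filtered. Precision is limited by the number of arrays. The arrays of a group come from separate mice. The p-values rest on the spread between arrays within groups, pooled over the 4 groups and moderated by eBayes. That pooled spread is not the one of the 2 groups compared. GMP KO arrays lay 0.18 to 0.27 (root mean square) from their group mean, the other arrays 0.11 to 0.15. The SE of Lamtor1 was 0.12 in both cell types, against 0.098 with only the LSK arrays fitted and 0.14 with only the GMP arrays.

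The members, lists and tests were chosen with earlier results of these data known. Named were all members, the partner genes past the threshold in a KO contrast where 5 or fewer passed in a direction (otherwise the 4 with the smallest p), and the 5 genes most alike to each member called in a KO contrast other than Lamtor2. Alternatives were array weights, eBayes with its trend and robust options, quantile normalization a second time, arrays centred on their median, a filter on the dimmest 30% of genes, probe sets averaged or tested singly, a fit of only the groups in the contrast, replicate blocks and omission of each array. The other probe set of Lamtor1 and Lamtor3 was added after seeing the data.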

Additional observations from a re-analysis of the deposited data

Results flagged for a closer look

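The KO effect differed between LSK and GMP by limma's interaction term for 3 of 21 regulators of the Rag GTPases and 3 of 14 genes of the mTORC1 list, against 7.98% of all genes. The effect in LSK minus that in GMP was -2.01 for Fnip2 (adjusted p = 3.97e-04), which rose in both cell types and by more in GMP. It was 0.90 for Lars (adjusted p = 0.00413), which rose in LSK and fell in GMP, and 0.70 for Deptor (adjusted p = 0.013), which rose in LSK. These 3 interactions kept their call with any of the 12 arrays left out. It was -0.49 for Tfeb (adjusted p = 0.0399), a call kept in 2 of 12 omissions (adjusted p from 0.022 to 0.104), those of LSK KO replicate 2 and GMP KO replicate 1. The Tfeb call also ended with centring (0.083) and with the trend and robust options (0.0554). It was -0.65 for Castor2 (adjusted p = 0.0399), a call kept in 4 of 12 omissions (adjusted p from 0.024 to 0.115), those of LSK WT replicate 1, LSK KO replicate 2 and GMP KO replicates 1 and 2, and lost with repeated quantile normalization (0.12) and centring (0.0545). It was -0.55 for Tfe3 (adjusted p = 0.0482), a gene that passed in neither KO contrast and is named here after its values were seen. That call was kept in 2 of 12 omissions (adjusted p from 0.0267 to 0.132), those of LSK KO replicate 2 and GMP KO replicate 1. It ended with repeated quantile normalization (0.0717), centring (0.0711), each probe set tested as a feature (0.0504) and the trend and robust options (0.0561).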

How the results depend on the processing

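The 11 calls on members over the 5 contrasts were each refitted under the alternatives and with each array left out. Of 187 refits, 164 kept direction and call, 23 kept the direction and lost the call, and 0 changed direction. Of 632 refits of member differences that had no call, 14 passed and 38 changed direction.

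The count of members with an interaction, 0, was 1 with repeated quantile normalization (Lamtor1) and 1 with array weights (Lamtor2), and 0 to 1 with an array left out. Between WT LSK and WT GMP the count of 2 was 0 with repeated quantile normalization, 1 with the replicate block, and 0 to 1 with an array left out. Between KO LSK and KO GMP it was 1 when only those arrays were fitted and 1 to 3 with an array left out. Between KO and WT it was 2 to 3 in LSK and 3 to 5 in GMP with an array left out.

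Direction changed only in differences without a call. The farthest from 0 in the main fit were the interactions of Rragd (-0.24) and Lamtor4 (0.22), and Lamtor4 in GMP (-0.19). With repeated quantile normalization the values in LSK were -0.091 for Lamtor3 and -0.062 for Lamtor4. The interactions were then -0.030 for Lamtor4 and -0.053 for Lamtor5, WT LSK minus WT GMP was 0.0098 for Lamtor1, and KO LSK minus KO GMP was -0.11 for Lamtor5 and -0.0725 for Rraga. With array weights they were -0.021 for Rraga and 0.037 for Rragb in GMP, -0.0131 for Lamtor5 in the interaction and -0.14 for Lamtor5 between KO LSK and KO GMP. With arrays centred they were -0.0160 for Rraga in GMP and -0.075 for Rragc between WT LSK and WT GMP.

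With an array left out, the values in LSK ranged over -0.027 to 0.094 for Lamtor1, -0.039 to 0.077 for Lamtor3 and -0.053 to 0.088 for Lamtor4. In GMP they ranged over -0.32 to 0.0038 for Lamtor4, -0.012 to 0.10 for Rraga and -0.17 to 0.038 for Rragb. The interaction ranged over -0.027 to 0.27 for Lamtor5 and -0.49 to 0.052 for Rragd. WT LSK minus WT GMP ranged over -0.12 to 0.017 for Lamtor1, -0.0496 to 0.11 for Rragc and -0.0696 to 0.25 for Rragd. KO LSK minus KO GMP ranged over -0.14 to 0.15 for Lamtor5, -0.021 to 0.11 for Rraga and -0.37 to 0.17 for Rragd. The cause of these changes was not tested.

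Same-numbered arrays deviated together by correlations between -0.23 and 0.28 over all pairs of groups. These were -0.03 to 0.18 between WT LSK and WT GMP, and -0.18 to 0.15 between KO LSK and KO GMP. Whether equal numbers mark one mouse is not stated, and these correlations do not settle it. With the replicate block Rragd in LSK kept its call, with an SE of 0.12 against 0.26 without the block (adjusted p = 3.47e-05). Rragb in LSK had no call either way (adjusted p = 0.109 with the block, 0.277 without). The LSK count with the block was 2, as Rragc had an adjusted p of 0.0599, and Lamtor4 between WT LSK and WT GMP had 0.0589. The interactions of Castor2 (0.062) and Tfe3 (0.0666) also lost their call with the block. With a random block (consensus correlation -1e-04) no member call changed.

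Genes called overall in LSK, 886, were 1734 with array weights, 1390 with the LSK arrays alone and 455 to 643 with an array left out. In GMP 3212 became 1778 with the GMP arrays alone and 1853 to 3628. The interaction count of 1591 ranged over 800 to 2006. Between KO LSK and KO GMP 3160 became 1327 and 1667 to 4044. With arrays centred, the share of calls that were higher moved from 35.9% to 24.7% in GMP, from 66.9% to 80.7% (54% with repeated quantile normalization) in the interaction and from 52.4% to 34.3% between WT LSK and WT GMP.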
